A study of Homo sapiens with 3 samples.

Results

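The genes described here are 10 growth factor receptor tyrosine kinases, EGFR, ERBB2, ERBB3, ERBB4, IGF1R, INSR, MET, RET, FGFR1 and FGFR3. They were taken by gene symbol from the 58735 genes of an RNA-seq table, and each symbol matched 1 row. The table covers parental H660 cells, a neuroendocrine prostate cancer cell line, in 3 libraries. One culture received the vehicle DMSO, the others received 2.5 μM or 5 μM JG231 for 24 h, and the treatment time of the vehicle culture is not given in the sources used here. The labels give the doses as bare numbers, and their unit and the time are those of the study's methods. JG231 is an allosteric inhibitor of HSP70, an ATP-dependent chaperone that binds unfolded proteins. The comparison asks how the drug altered transcript levels in these cells. There was 1 library per condition from 1 cell line, so no value has a replicate error and no test between conditions was possible. Protein was not measured in this table.

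Receptor tyrosine kinases span the cell membrane and are switched on when a growth factor brings receptor chains together or rearranges chains already paired, so that their intracellular kinase domains phosphorylate each other. The phosphorylated tails recruit adaptors that start the RAS-ERK and PI3K-AKT cascades, which drive growth and survival. Signalling is limited by feedback proteins that ERK itself induces and by ubiquitin ligases that send receptors to the lysosome. In the prostate, EGF family, IGF and FGF receptors serve epithelial growth, while RET is known for its role in neural crest and neuroendocrine cells.

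The promoters of the receptors that the results turn on are shown because all 10 receptor transcripts were lower in both JG231 libraries. RefSeq promoter sequences on GRCh38.p14 were at hand for 8 of the 10 receptors, in 10 windows, and those of ERBB3 and FGFR1 were not used here. Each window printed holds the 250 bases before an annotated start. RET (first start) lies at chr10:43076819-43077068 on the plus strand, and it is shown as the receptor with the lowest share of its vehicle level at 5 μM. FGFR3 lies at chr4:1793043-1793292 on the plus strand and INSR at chr19:7294415-7294664 on the minus strand, and both were lower at 2.5 μM than at 5 μM. EGFR (first start) lies at chr7:55018767-55019016 on the plus strand, a receptor with one of the smaller changes. Capitals mark the GC box GGGCGG on either strand, the sequence bound by SP family factors, and neighbouring boxes may share letters.
RET: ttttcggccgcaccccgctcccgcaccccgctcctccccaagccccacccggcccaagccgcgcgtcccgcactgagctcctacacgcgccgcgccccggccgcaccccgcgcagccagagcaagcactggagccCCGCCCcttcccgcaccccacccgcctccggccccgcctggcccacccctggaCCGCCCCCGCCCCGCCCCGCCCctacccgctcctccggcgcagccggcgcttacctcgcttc
FGFR3: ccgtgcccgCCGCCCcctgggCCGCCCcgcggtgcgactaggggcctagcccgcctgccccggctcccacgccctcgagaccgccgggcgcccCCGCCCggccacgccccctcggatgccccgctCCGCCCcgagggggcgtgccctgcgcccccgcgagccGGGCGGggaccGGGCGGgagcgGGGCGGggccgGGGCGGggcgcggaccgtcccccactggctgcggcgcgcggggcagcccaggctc
INSR: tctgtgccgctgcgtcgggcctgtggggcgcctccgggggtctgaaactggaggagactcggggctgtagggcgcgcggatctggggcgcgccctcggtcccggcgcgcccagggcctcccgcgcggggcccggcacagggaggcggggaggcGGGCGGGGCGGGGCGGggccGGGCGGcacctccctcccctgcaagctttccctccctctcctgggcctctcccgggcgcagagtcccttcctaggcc
EGFR: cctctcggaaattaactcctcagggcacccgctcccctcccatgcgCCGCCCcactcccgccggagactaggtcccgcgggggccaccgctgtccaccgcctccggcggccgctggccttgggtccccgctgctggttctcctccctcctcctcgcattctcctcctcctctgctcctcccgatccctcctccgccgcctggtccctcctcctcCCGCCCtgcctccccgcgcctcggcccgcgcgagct

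A GC box stood in 8 of the 10 receptor windows, with 8 in FGFR3, 5 in the first RET window, 4 in INSR and 2 in the first EGFR window, while the second EGFR window and that of ERBB2 held none. Over all 34788 promoter windows of this length, 42.6% held it. The windows shown were rich in G and C, from 73.6% in EGFR to 86.8% in FGFR3, against a median of 58% over all windows. The E-box CACGTG, the sequence bound by MYC family dimers with MAX, was in 0 of the 10 receptor windows and in 6.31% of all windows. The composite element TGATGNAA, bound by ATF4 with C/EBP partners, was in 0 of 10 and in 3.16% of all. CCAAT was in 1 of 10, that of ERBB2, and in 32.0% of all. These matches describe letters in a short window, and the receptors with large and small changes both held GC boxes.

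Values are FPKM as deposited by the authors, that is, fragments scaled to the length of the gene and to the size of the library. The steps between low values gave 16.1 M fragments in the DMSO library, 20.4 M at 2.5 μM and 24.1 M at 5 μM. All 6 neuroendocrine markers examined were over 1 FPKM in every library, and 0 of 5 prostate luminal markers was, although the label calls the cells a prostatic adenocarcinoma. The summed level of the neuroendocrine markers was 428 FPKM in DMSO, 176 with 2.5 μM JG231 and 151 with 5 μM. Leukocyte markers summed to at most 0.284 FPKM and fibroblast markers to at most 1.32 FPKM. Of 3 endothelial markers only CDH5 was over 1 FPKM, in DMSO, and their sum went from 5.13 FPKM to 0.741 and 0.581. Fewer cells of a type and less RNA per cell cannot be told apart in these samples, and the part of these shifts in the receptor values was not tested. Mitochondrial genes held 39.8% of the summed FPKM of the DMSO library, 24.1% of the 2.5 μM and 28.8% of the 5 μM library.

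In vehicle-treated H660 cells the receptors differed widely in level. ERBB3 and RET stood apart, at 35.7 and 26.4 FPKM in DMSO, and together made up 76.2% of the summed FPKM of the 10 genes. ERBB2 followed at 4.52 FPKM and INSR at 3.95, with counting intervals that overlapped. IGF1R was at 3.29 FPKM, then FGFR3 at 2.55 and EGFR at 2.52, a pair within counting error of each other. FGFR1 at 1.26 FPKM and MET at 1.15 could not be ordered either, and ERBB4 was last at 0.186 FPKM. In both JG231 libraries ERBB3, RET and ERBB2 kept the first, the second and the third place. The sum over the 10 receptors was 81.6 FPKM in DMSO, 27.9 with 2.5 μM JG231 and 26.1 with 5 μM, or 34.3% and 32.0% of the vehicle value. Without ERBB3 and RET the sum of the other 8 was 53.1% and 52.3% of its vehicle value.

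**Figure D1:**
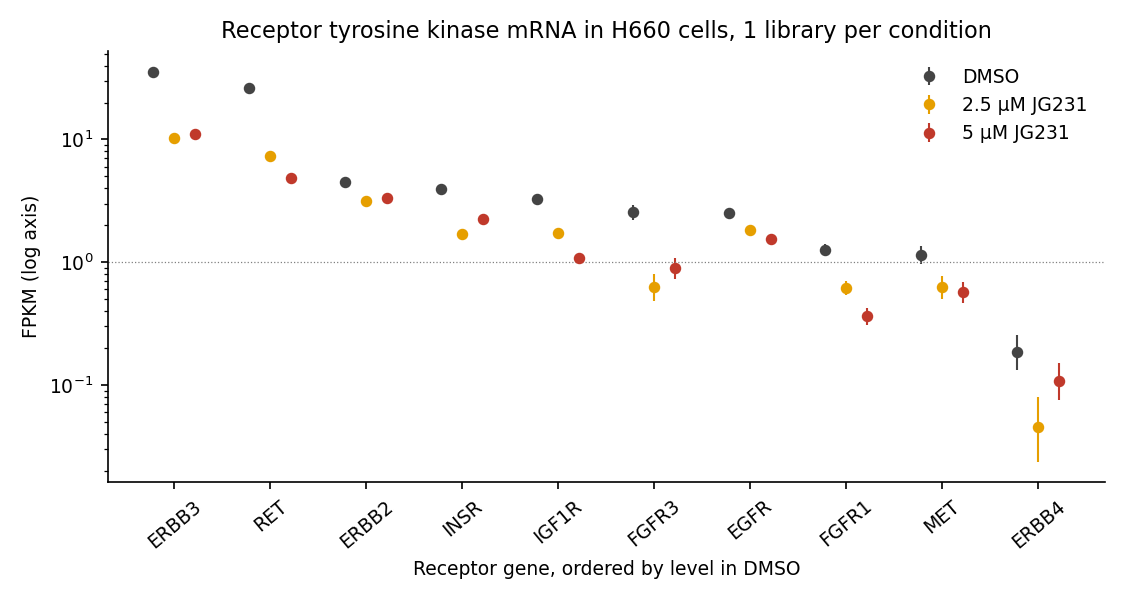
FPKM of each receptor (log axis) in the DMSO, 2.5 μM JG231 and 5 μM JG231 libraries, 1 library each, ordered by the DMSO level; bars are exact 95% Poisson intervals for counting error only and the dotted line marks 1 FPKM. The DMSO point is the highest for all 10 receptors, from 35.7 FPKM for ERBB3 to 0.186 for ERBB4.

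All 10 receptors were lower than in DMSO at 2.5 μM and at 5 μM, comparisons that share their 1 DMSO library. Changes are the difference from DMSO in log2(FPKM + 0.1), a scale that understates the change of low genes. With a filter of FPKM over 1 in at least 1 of the 2 libraries compared, genes at 0 in the other included, 9 receptors could be counted and ERBB4 could not. Of these, 9 were lower by over 0.25 at 2.5 μM, where 43.4% of 15746 genes were lower and 36.4% higher by that much. At 5 μM 9 of 9 were lower by over 0.25, where 45.1% of 15765 genes were lower and 36.5% higher. A change of over 1, a 2-fold difference on this scale, was seen in 4 receptors at 2.5 μM (21.7% of all genes lower, 12.9% higher) and in 5 at 5 μM (24.3% lower, 14.7% higher). FGFR1, FGFR3 and MET passed the filter through their DMSO value alone, so they had to be lower to be counted. The 6 receptors over 1 FPKM in both libraries compared had medians of -1.04 (2.5 μM) and -1.15 (5 μM). Over all 9 the medians were -0.92 and -1.42, which include the 3 that had to be lower, and over all genes that passed -0.08 and -0.11. When mitochondrial and small RNA genes were left out and the libraries rescaled, the shares of all genes lower and higher by over 0.25 became 56.2% and 24.6% at 2.5 μM and 60.1% and 23.0% at 5 μM. That rescaling lowered the JG231 values further, so the 9 receptors had to stay lower at both doses.

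Counting intervals of the log2 ratio lay below 0 for all 10 receptors at both doses. They cover counting error only, because amplified fragments without molecular identifiers are not independent molecules. As no replicate error exists, a spread was taken from the 2 JG231 libraries, as the robust SD of log2 differences between doses, either over the 500 genes nearest in mean FPKM or over the 500 protein-coding genes nearest in mean fragments. By the first measure the change was larger than the spread for 7 of 10 receptors at 2.5 μM and 6 at 5 μM, and by the second for 8 and 9. Of all genes that passed the filter 33.7% and 36.5% were lower by more than the first spread, and of the protein-coding ones 29.7% and 33.0% by more than the second. These 2 spreads compare different doses, and no second DMSO library was measured. The libraries also differed by transcript length, longer transcripts being lower with JG231, and receptor transcripts are long, from 4301 bases for FGFR3 to 12235 for IGF1R. The trend at the receptors' lengths was between -0.08 and -0.38 at 2.5 μM and between -0.16 and -0.66 at 5 μM. All 10 receptors lay below the trend at 2.5 μM and 9 of 10 at 5 μM, the 3 that passed the filter through DMSO alone included, beside 49.4% and 50.3% of the protein-coding genes that passed.

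**Figure D2:**
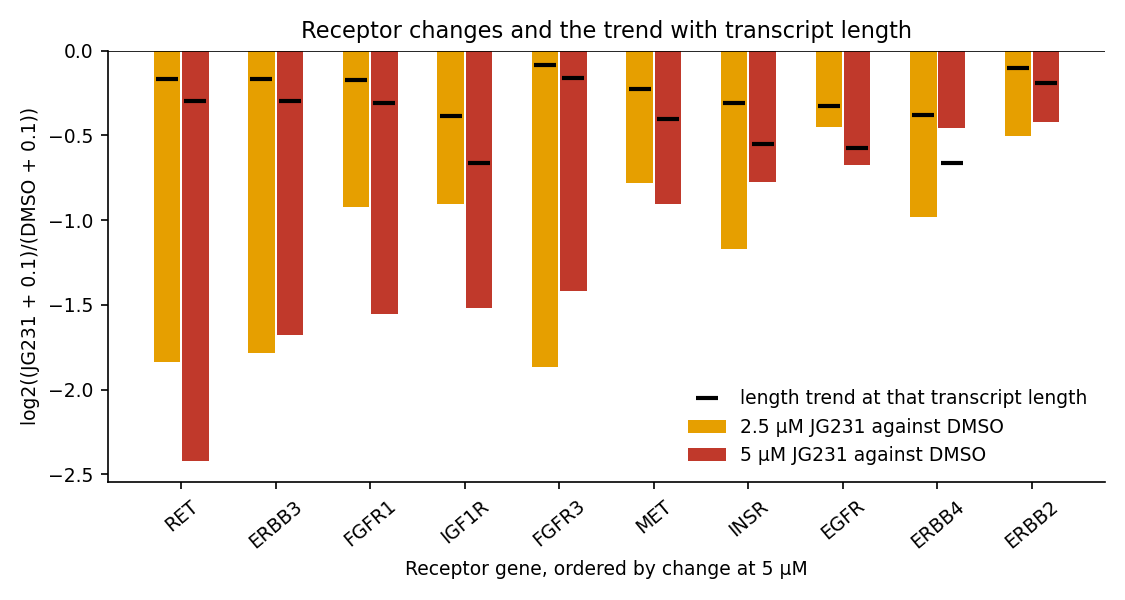
Change of each receptor on the log2(FPKM + 0.1) scale at 2.5 μM and 5 μM JG231 against DMSO (bars, 1 library each), ordered by the change at 5 μM; black dashes give the lowess trend over protein-coding genes at that receptor's transcript length. RET reaches -2.42 at 5 μM where the trend is -0.30, and ERBB4 at 5 μM is the only bar that stops short of its dash.

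Among the EGFR family, ERBB3 held most of the transcript and was lower by the widest margin among the members with over 100 fragments in each library. ERBB3 has little kinase activity of its own, binds neuregulins and signals through its partners, above all to PI3K. The gene (ENSG00000065361, chromosome 12, 56076799 to 56103505 on GRCh38) had 35.7 FPKM in DMSO, 10.3 with 2.5 μM JG231 and 11.1 with 5 μM. The vehicle library stood apart, and the JG231 libraries were close to each other, at 28.9% and 31.0% of the vehicle level. The log2 changes were -1.78 and -1.68, on at least 2459 fragments in every library, with counting intervals of the log2 ratio from -1.86 to -1.73 and from -1.75 to -1.63. The spread was 0.28 by level and 0.24 by fragments, and the length trend was -0.16 and -0.30 on the same scale.

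ERBB2 is the receptor without a known ligand and the preferred partner of the other family members. It had 4.52 FPKM in DMSO, 3.16 with 2.5 μM JG231 and 3.35 with 5 μM (ENSG00000141736, chromosome 17, 39687914 to 39730426). Both JG231 values lay below the vehicle value, at 69.9% and 74.1% of it. The log2 changes were -0.50 and -0.42. By level the spread was 0.50, which the change at 2.5 μM barely passed and that at 5 μM did not, and both were above the spread of 0.34 by fragments. At 5 μM the length trend was -0.19, which leaves -0.23. On the opposite strand, exons of MIEN1 share 571 bp with those of ERBB2, or 5.53% of its exon length, and MIEN1 was at 19.6, 45.7 and 46.6 FPKM. PGAP3, on that strand too, shares 144 bp, and was at 16.8, 9.39 and 13.5 FPKM. The sources used here do not say if counting was stranded, and the part of MIEN1 and PGAP3 reads in the ERBB2 value was not tested.

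EGFR, the receptor of EGF, TGF-alpha and amphiregulin, was lower at both doses. Its values were 2.52 FPKM in DMSO, 1.82 with 2.5 μM JG231 and 1.54 with 5 μM (ENSG00000146648, chromosome 7, 55019017 to 55211628). The log2 changes were -0.45 and -0.68, within the spread of 0.74 by level and beyond that of 0.42 by fragments. The trend for a transcript of 9905 bases was -0.32 and -0.57, and the EGFR changes with it removed were -0.12 and -0.10. The step of -0.23 from 2.5 μM to 5 μM equalled the length trend between those libraries, also -0.23, and lay within both spreads. ERBB4, the remaining neuregulin receptor (ENSG00000178568, chromosome 2, 211375717 to 212538841), was near the limit of detection, at 0.186, 0.0453 and 0.109 FPKM, which stand for 39, 12 and 34 fragments. Its counting interval of the log2 ratio at 5 μM ran from -1.49 to -0.08 and its spread was 0.95 by level, so little can be said of ERBB4 at this depth. With the length trend removed its value at 5 μM turned to 0.20.

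The insulin family receptors IGF1R and INSR are close relatives that form hybrid dimers and act mainly through IRS docking proteins and PI3K-AKT. IGF1R was lower with each dose, at 3.29 FPKM in DMSO, 1.71 with 2.5 μM JG231 and 1.08 with 5 μM (ENSG00000140443, chromosome 15, 98648539 to 98964530). At 5 μM it was 3.04-fold lower than in DMSO, a log2 change of -1.52 against spreads of 0.76 and 0.40. Its transcript is the longest of the 10, and with a trend of -0.66 removed the change was -0.86. INSR had 3.95 FPKM in DMSO, 1.70 with 2.5 μM JG231 and 2.26 with 5 μM (ENSG00000171105, chromosome 19, 7112255 to 7294414). Here the lowest library was that at 2.5 μM. The INSR changes were -1.17 and -0.78, beyond its spreads of 0.54 and 0.42, and -0.86 and -0.23 with the length trend removed. The transcript ratio of the relatives therefore differed between libraries, with INSR above IGF1R in DMSO and at 5 μM and level with it within counting error at 2.5 μM.

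RET, the signalling chain of the receptors for GDNF family ligands, had the lowest share of its vehicle level among the 10 at 5 μM. It was at 26.4 FPKM in DMSO, 7.32 with 2.5 μM JG231 and 4.85 with 5 μM (ENSG00000165731, chromosome 10, 43077064 to 43130351). The 3 libraries were well separated, and the JG231 values were 27.7% and 18.3% of the vehicle value, or 3.61-fold and 5.45-fold lower. The log2 changes of -1.84 and -2.42 stood on at least 1046 fragments a library, with counting intervals from -1.94 to -1.76 and from -2.55 to -2.35. They were many times the spreads of 0.29 and 0.25, and were -1.67 and -2.13 with the length trend removed.

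MET, the receptor of hepatocyte growth factor, was a low transcript in all 3 libraries. It had 1.15 FPKM in DMSO, 0.628 with 2.5 μM JG231 and 0.567 with 5 μM (ENSG00000105976, chromosome 7, 116672196 to 116798377). Those values rest on 133, 92 and 99 fragments, and the 2 JG231 libraries were alike within counting error. The MET changes of -0.78 and -0.90 lay within the spread of 1.11 by level, and only that at 5 μM passed the spread of 0.85 by fragments. The length trend was -0.23 and -0.41.

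FGFR1 and FGFR3, the FGF receptors among the 10, were lower than in DMSO at both doses. FGFR1, a main FGF receptor of mesenchymal and neural cells, was at 1.26 FPKM in DMSO, 0.617 with 2.5 μM JG231 and 0.363 with 5 μM (ENSG00000077782, chromosome 8, 38400215 to 38468834). It was lower with each dose, by -0.92 and -1.55 on the log2 scale, against spreads of 1.23 and 0.57 and a length trend of -0.17 and -0.31. FGFR3, an FGF receptor known from skeletal growth and urothelial cancer, had 2.55 FPKM in DMSO, 0.628 with 2.5 μM JG231 and 0.892 with 5 μM (ENSG00000068078, chromosome 4, 1793293 to 1808872). Its lowest library was that at 2.5 μM, and the JG231 values were 24.6% and 34.9% of the vehicle value, on 62 and 104 fragments. The changes of -1.87 and -1.42 were beyond its spreads of 0.93 and 0.81, and the length trend at its transcript, the shortest of the 10, was only -0.08 and -0.16. The FGFR3 step from 2.5 μM to 5 μM, 0.45, lay within both of its spreads. That of FGFR1, -0.63, lay within its spread of 1.23 by level and beyond that of 0.57 by fragments.

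Set against each other, the 2 JG231 libraries split the receptors. At 5 μM the counting interval lay below the 2.5 μM value for 4 receptors, EGFR, IGF1R, RET and FGFR1, and above it for 4, ERBB3, ERBB4, INSR and FGFR3, while it included no difference for ERBB2 and MET. Of the 6 receptors over 1 FPKM in either JG231 library, 2 were lower by over 0.25 at 5 μM than at 2.5 μM, IGF1R at -0.62 and RET at -0.59, and 1 was higher, INSR at 0.39. Over all 14197 genes that passed, 30.1% were lower and 26.8% higher by that much. The RET difference was beyond its spreads of 0.29 and 0.25, and the IGF1R difference lay within its spread of 0.76 by level and beyond that of 0.40 by fragments. The INSR difference lay within both of its spreads. These spreads are the robust SD of the same dose differences over the nearest genes, so part of all genes lies beyond them by construction. That share was not computed for this comparison.

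**Figure D3:**
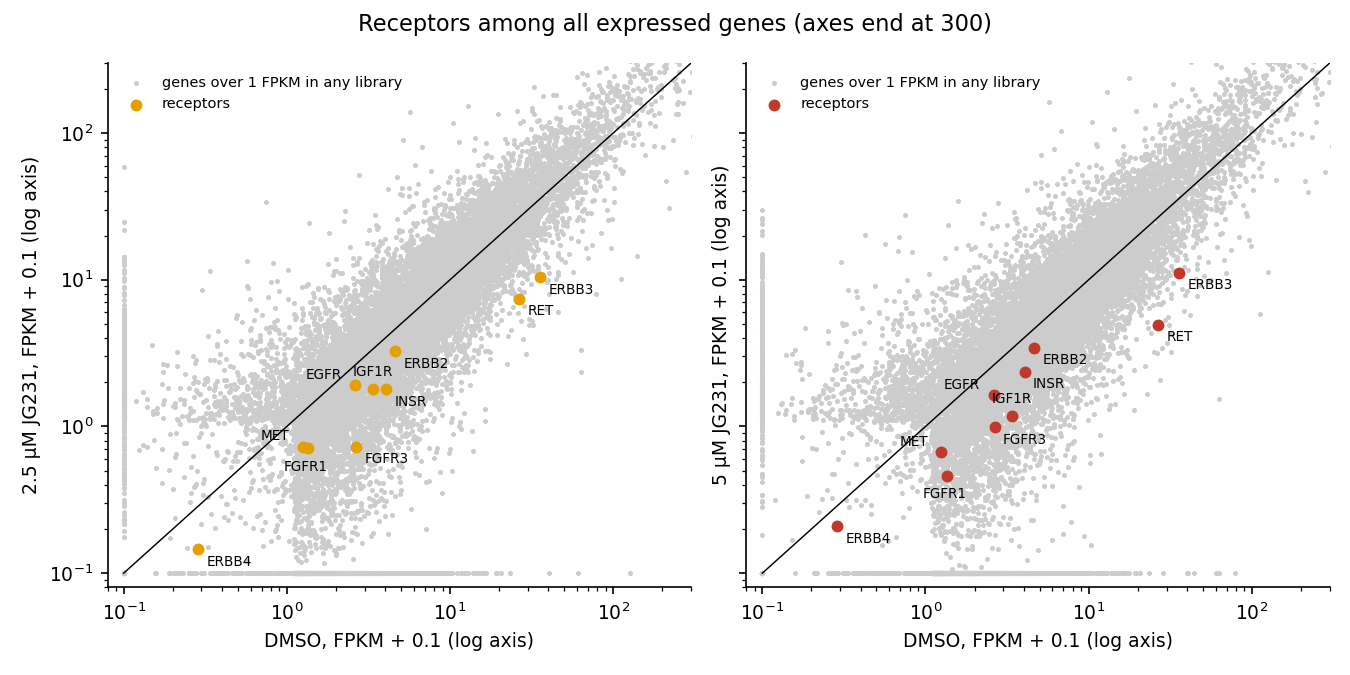
FPKM + 0.1 at 2.5 μM (left) and 5 μM JG231 (right) against DMSO on log axes, with 1 grey point for each gene over 1 FPKM in any library and the 10 receptors in colour; the line marks equal values, and genes past the ends of the axes are not shown. All receptors lie under the line in both panels, with RET and ERBB3 at the right side of the group.

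The other human receptor tyrosine kinases were followed as a list of 48 genes, of which 21 passed the filter at each dose. Of the 21, 13 were lower and 7 higher by over 0.25 at 2.5 μM, and 14 were lower and 4 higher at 5 μM. After rescaling without mitochondrial and small RNA genes 15 were lower and 4 higher at 2.5 μM, and 18 were lower and 1 higher at 5 μM, of 22 that then passed. Over all genes that passed, 43.4% were lower and 36.4% higher at 2.5 μM and 45.1% and 36.5% at 5 μM as deposited, and 56.2% and 24.6%, and 60.1% and 23.0%, when rescaled. Through DMSO alone 2 of the 21 passed at 2.5 μM and 4 at 5 μM, and had to be lower. Of those over 1 FPKM in both libraries, 11 were lower and 6 higher at 2.5 μM, and 11 were lower and 3 higher at 5 μM. The median change over the 21 was -0.67 and -0.69, and its difference from that of the 10 receptors was not tested. KIT, the stem cell factor receptor, was at 24.1 FPKM in DMSO, 6.46 with 2.5 μM JG231 and 4.22 with 5 μM, levels that lie side by side with those of RET. EPHB1, an ephrin receptor, was at 13.0, 3.86 and 3.76 FPKM. ALK, a receptor of the nervous system, was higher with JG231, at 1.49, 2.65 and 2.17 FPKM, though its log2 change at 5 μM of 0.51 became 0.15 after that rescaling. EPHA6, an ephrin receptor, was at 0.613, 1.70 and 1.77 FPKM and passed the filter through its JG231 values alone, so it had to be higher to be counted.

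The receptor partners on the cell surface that passed the filter were lower as well. Of 10 co-receptors, decoys and related partners 3 passed the filter, and all 3 were lower by over 1 at both doses, beside the 21.7% and 24.3% of all genes given above. With the length trend removed only FGFRL1 stayed past 1, as IGF2R was at -0.91 and -0.92 and SORL1 at -0.76 and -0.75. FGFRL1, an FGF receptor relative without a kinase domain, was at 4.41, 1.27 and 0.983 FPKM, and at 5 μM it passed through its DMSO value alone. IGF2R, which binds IGF2 and carries it to the lysosome, was at 15.4, 6.06 and 4.85 FPKM, and the sorting receptor SORL1 at 8.24, 3.77 and 3.14 FPKM. The length trend for IGF2R, a transcript of 14061 bases, was -0.42 and -0.73. The GDNF family co-receptors that RET needs were scarce, with GFRA1 at 0.064 FPKM in DMSO and listed at 0 with JG231, and GFRA2 at 0.424, 0.146 and 0.240 FPKM. GFRA3 was listed at 0 in all 3 libraries, and GFRAL was seen only at 2.5 μM, at 0.308 FPKM or 12 fragments.

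Ligand transcripts were mixed in direction. Of 38 ligand genes 11 passed the filter at 2.5 μM, with 4 lower and 6 higher by over 0.25, and 10 passed at 5 μM, with 3 lower and 5 higher. After rescaling without mitochondrial and small RNA genes these became 5 lower and 3 higher at 5 μM, and stayed at 4 and 6 at 2.5 μM. The shares over all genes were 43.4% lower and 36.4% higher at 2.5 μM and 45.1% and 36.5% at 5 μM. When rescaled they were 56.2% and 24.6% at 2.5 μM and 60.1% and 23.0% at 5 μM. EGF passed through DMSO alone at both doses, PSPN at 2.5 μM and FGF17 at 5 μM, while NRG1 passed through JG231 alone at 2.5 μM. AREG, which encodes the EGFR ligand amphiregulin, was at 2.19 FPKM in DMSO, 29.5 with 2.5 μM JG231 and 28.1 with 5 μM. Both JG231 values lay far above the vehicle value, 13.5-fold and 12.8-fold, on 58, 986 and 1109 fragments. AREG is a short transcript, with a length trend of 0.32 and 0.47 beside its changes of 3.69 and 3.62. TGFA, another EGFR ligand, was at 2.67, 4.13 and 2.74 FPKM, and BTC at 1.96, 1.25 and 1.95 FPKM, so these were near the vehicle level at 5 μM. NRG1, a ligand of ERBB3 and ERBB4, was at 0.829, 1.62 and 0.936 FPKM. The changes of TGFA, BTC and NRG1 at 5 μM switched sign between scalings.

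The ligands of the RET complex included the most abundant growth factor transcript of the lists. GDF15, a stress-induced member of the TGF-beta family whose receptor is GFRAL with RET, was at 179 FPKM in DMSO, 1572 with 2.5 μM JG231 and 1637 with 5 μM. It was 8.80-fold and 9.17-fold higher with JG231. ARTN, the ligand of GFRA3 with RET, was at 2.53, 4.03 and 5.16 FPKM and NRTN, that of GFRA2 with RET, at 8.18, 9.69 and 12.3 FPKM. PSPN, the ligand of GFRA4 with RET, was at 5.77, 0.828 and 1.30 FPKM. For the other receptors few ligand transcripts were seen, as HGF, IGF1 and the rows of IGF2 were listed at 0 in all 3 libraries. FGF9 was at 1.33, 3.31 and 2.01 FPKM, and FGF17, named after its values were seen because only it and FGF9 passed among the FGF genes, was at 1.95 and 1.05 FPKM and listed at 0 at 5 μM.

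Adaptors and cascade kinases below the receptors were mixed, and their direction depended on the scaling. Of 22 adaptors 17 passed at 2.5 μM, with 6 lower and 7 higher by over 0.25, and 16 at 5 μM, with 7 lower and 4 higher. After that rescaling 9 were lower and 4 higher at 2.5 μM, and 11 were lower and 1 higher at 5 μM. All genes were lower in 43.4% and higher in 36.4% at 2.5 μM, and 45.1% and 36.5% at 5 μM, or 56.2% and 24.6%, and 60.1% and 23.0%, when rescaled. GAB2, a docking protein for PI3K and SHP2, was at 6.21, 20.2 and 14.5 FPKM in DMSO and at 2.5 and 5 μM. PTPN11, which encodes SHP2, was at 17.2, 10.5 and 9.88 FPKM, and SOS1, the exchange factor of RAS, at 6.28, 4.95 and 3.62 FPKM. FRS3, a docking protein of FGF receptors, was at 4.07, 4.71 and 6.31 FPKM.

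In the RAS-ERK and PI3K-AKT cascade of 21 genes, 5 were lower and 9 higher by over 0.25 at 2.5 μM among 18 that passed, and 5 were lower and 8 higher at 5 μM among 19. The medians were 0.26 and 0.10, and turned to -0.09 and -0.26 after that rescaling, with 8 lower and 8 higher at 2.5 μM and 10 lower and 5 higher at 5 μM. Over all genes 43.4% were lower and 36.4% higher at 2.5 μM and 45.1% and 36.5% at 5 μM, and when rescaled 56.2% and 24.6%, and 60.1% and 23.0%. The 2 highest changes at 5 μM were those of ARAF, a RAF kinase, at 15.0, 50.5 and 54.4 FPKM and MAP2K2, which encodes MEK2, at 20.1, 37.9 and 50.4 FPKM. The 2 lowest were those of AKT2 at 5.18, 3.52 and 2.44 FPKM and PDPK1, the kinase that activates AKT, at 3.96, 2.22 and 1.96 FPKM. MAP2K2 has a short transcript, with a length trend of 0.34 at 5 μM beside its change of 1.32, and PDPK1 a long one, with a trend of -0.43 beside -0.98.

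Proteins that restrain the receptors were mixed. Among 17 of 18 attenuators that passed, 8 were lower and 7 higher by over 0.25 at 2.5 μM and 9 were lower and 7 higher at 5 μM. Through JG231 alone 1 passed at each dose and had to be higher. SH2B3 passed through DMSO alone at 5 μM and had to be lower. Of those over 1 FPKM in both libraries, 8 were lower and 6 higher at each dose. After that rescaling 10 of the 17 were lower and 6 higher at 2.5 μM, beside 56.2% and 24.6% of all genes. At 5 μM 10 were then lower and 4 higher, beside 60.1% and 23.0%. As deposited the counts over the 17 lie near the shares over all genes, 43.4% lower and 36.4% higher at 2.5 μM and 45.1% and 36.5% at 5 μM. ERRFI1, an ERK-induced inhibitor that binds the EGFR kinase domain, was at 13.0 FPKM in DMSO, 40.2 with 2.5 μM JG231 and 36.8 with 5 μM. GRB10, an adaptor that dampens INSR and IGF1R, was at 9.85, 23.5 and 20.4 FPKM. Its log2 changes of 1.25 and 1.04 became 0.96 and 0.66 after that rescaling, whereas those of ERRFI1 stayed over 1. PTPRF, a receptor phosphatase, was at 52.2, 23.1 and 19.2 FPKM, and SH2B3, an adaptor that limits cytokine receptor and kinase signalling, at 1.83, 1.30 and 0.366 FPKM.

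Of 10 genes that ERK signalling is known to raise, 6 passed the filter, and 2 of these, SPRY2 and SPRY4, passed through their JG231 values alone and had to be higher to be counted. Of the 4 that were over 1 FPKM in DMSO as well, DUSP4, DUSP6 and PHLDA1 were higher and EPHA2 was lower by over 0.25 at each dose, beside 36.4% and 36.5% of all genes higher. After that rescaling 4 of the 6 were higher and 1 lower by over 0.25 at each dose, with SPRY2 and SPRY4 among the 4 and 24.6% and 23.0% of all genes higher, and with the length trend removed EPHA2 at 5 μM was at -0.18. DUSP4 and DUSP6, phosphatases of ERK named after their values were seen, were at 1.95, 3.64 and 3.23 FPKM and at 3.07, 4.26 and 6.32 FPKM. SPRY4 and SPRY2 encode feedback inhibitors of receptor signalling. SPRY4 was at 0.208, 1.38 and 1.99 FPKM, on 22, 184 and 315 fragments, and SPRY2 at 0.368, 1.10 and 1.64 FPKM, on 19, 72 and 127 fragments. Both were scarce in DMSO. PHLDA1 was at 2.13, 5.86 and 3.26 FPKM, and EPHA2 at 2.69, 2.12 and 2.18 FPKM. ERK activity itself was not measured here.

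The IGF-binding proteins, which hold IGF ligands outside the cell, were led by IGFBP5 in DMSO. IGFBP5 was at 39.8 FPKM in DMSO, 9.92 with 2.5 μM JG231 and 8.23 with 5 μM, or -1.99 and -2.26 on the log2 scale, where its spread by level was 0.28. Of the 7 genes 4 passed, with 4 lower and 0 higher by over 0.25 at 2.5 μM and 2 lower and 0 higher at 5 μM, beside 43.4% and 45.1% of all genes lower. At 5 μM all 4 were lower by over 0.25 after that rescaling, beside 60.1% of all genes. All 4 were also lower with the length trend removed, beside 44.9% of all genes. In these 2 settings IGFBP2 turned from 0.01 to -0.37 and -0.41, and IGFBP6 from 0.05 to -0.32 and -0.51. IGFBP2 was at 36.9, 28.9 and 37.1 FPKM, IGFBP6 at 4.71, 2.74 and 4.88 FPKM, and IGFBP4 at 5.06, 3.39 and 3.70 FPKM.

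**Figure D4:**
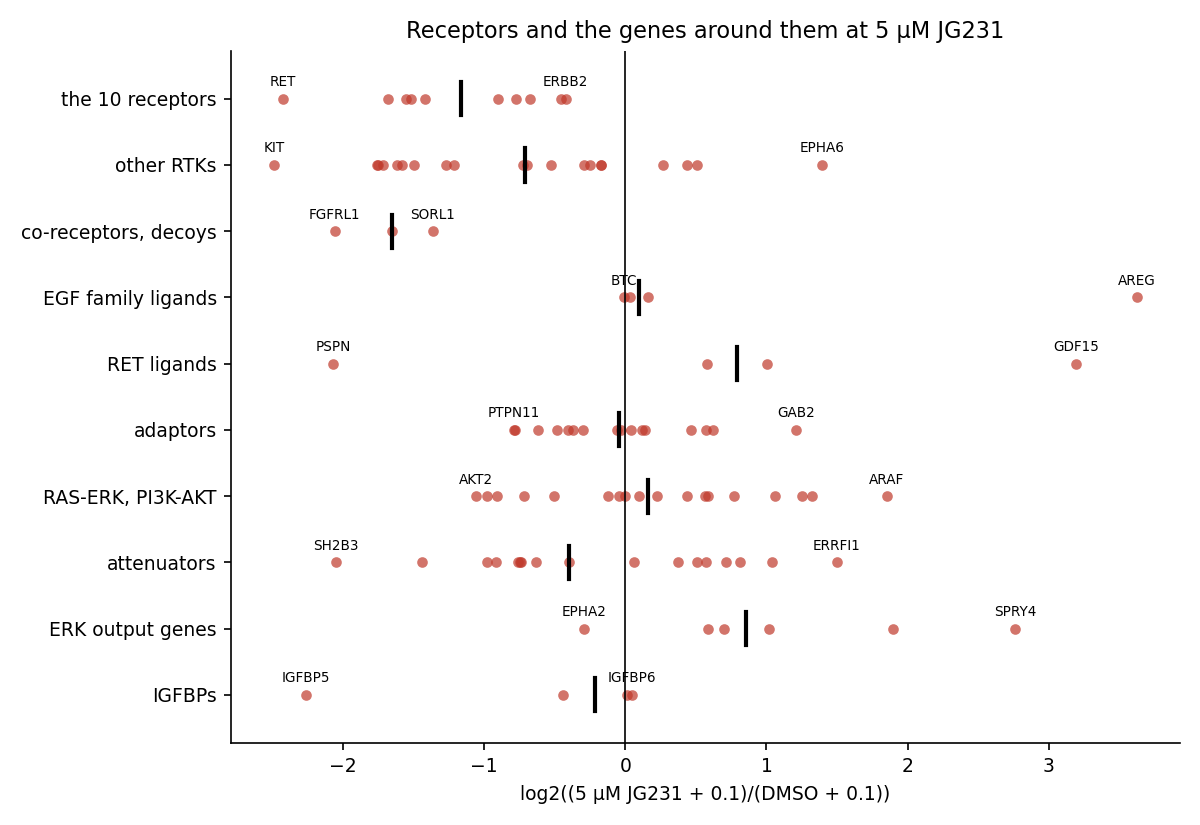
Change at 5 μM JG231 against DMSO on the log2(FPKM + 0.1) scale, 1 point a gene and 1 library per condition, for the 10 receptors and for genes of the other lists with a mean FPKM of at least 1; black bars are medians of the points shown and the outermost genes are named. The receptors lie between -2.42 (RET) and -0.42 (ERBB2), whereas AREG at 3.62, GDF15 at 3.20 and SPRY4 at 2.76 lie on the other side.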

How the data were processed

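RNA-seq libraries of H660 cells, 1 per condition, were analysed from the gene table. The authors deposited FPKM values, that is, fragments scaled by the authors to gene length and library size. The paper's methods name HISAT and StringTie, while the submitters' processing notes name HISAT2, featureCounts and GRCh38 (hg38); versions and the annotation release are not given in the sources used here. Of 58735 gene identifiers 58207 were found in GENCODE release 44, which gave coordinates, exon length and canonical transcript length. Coordinates are on GRCh38.

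The FPKM value of 1 fragment was read from genes with 1 transcript, where 86.7% to 90.5% of FPKM times exon length came out whole within 0.1. With several transcripts, 63.6% to 64.1% of genes under 20 fragments were whole with the union of exons, and 21.2% to 22.5% with the canonical transcript, so fragments were computed with the union. They were whole in all 3 libraries for 4 of the 10 receptors and are approximate for the rest. Intervals are exact at 95% (Poisson for a level, binomial for a ratio).

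The pseudocount of 0.1, the expression minimum of 1 and the log2 threshold of 0.25 are those of the study's methods, which also kept genes going to or from 0. The minimum was applied here as FPKM over 1 in at least 1 of the 2 libraries compared, a reading the methods do not spell out, and a threshold of 1 was added. The length trend was fitted by lowess (fraction 0.3) over the protein-coding genes that passed. Receptors and lists were chosen with earlier results of these data known. In each list the 2 highest and 2 lowest genes at 5 μM with a mean FPKM of at least 1 were named, with ligands and co-receptors of that level. GFRA1, GFRA2, GFRA3, GFRAL, HGF, IGF1, IGF2, EGF, FGF17, DUSP4 and DUSP6 are named outside this rule, and the spread by fragments, the all-gene shares past each spread, the counts over 1 FPKM in both libraries and the scaling of the lists were chosen after values were seen. Alternatives were pseudocounts of 1 and 0.01, other filters, rescaling, centring and length removal. Fragment steps and calls were tested on simulated data. The lowess came from statsmodels 0.14.6 and the intervals from scipy 1.17.1, under Python 3.11.15 with pandas 2.3.3 and numpy 2.4.6; plots were drawn with matplotlib 3.10.9.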

Additional observations from a re-analysis of the deposited data

How the results depend on the processing

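Rescaling, centring and length removal, 4 alternatives, left 79 of 80 changes below 0, while filters and pseudocounts cannot turn the sign. Most of the 80 could not turn either. Rescaling without mitochondrial and small RNA genes lowered the JG231 values further, as did rescaling to a common FPKM sum at 5 μM. Centring, and the common sum at 2.5 μM, raised them by less than the smallest change, -0.42 for ERBB2 at 5 μM. Only length removal could turn a sign. The exception was ERBB4 at 5 μM with the length trend removed, at 0.20, where the trend of -0.66 at its length was larger than its change of -0.46. As deposited, 9 receptors were lower by over 0.25 at each dose, and 4 and 5 were lower by over 1. With a mean FPKM of at least 5, only ERBB3 and RET were left, so the counts were 2 at both doses and thresholds and the median was -1.81 at 2.5 μM. Of all genes at that level, 26.1% at 2.5 μM and 27.4% at 5 μM were lower by over 0.25, and 6.30% and 7.48% by over 1. Leaving out mitochondrial and small RNA genes and rescaling put the median of all genes at -0.40 at 2.5 μM and -0.53 at 5 μM, and 7 and 8 receptors were then lower by over 1, beside 29.6% and 34.6% of all genes. A pseudocount of 1 left 3 receptors lower by over 1 at 5 μM, beside 18.2% of all genes, and put the 5 μM median of the 9 receptors at -0.73 in place of -1.42. With the length trend removed that median was -0.86, and 8 receptors were lower by over 0.25 at 2.5 μM and 6 at 5 μM, beside 44.3% and 44.9% of all genes. Of those 6, FGFR1, FGFR3 and MET had to be lower to be counted, and those within 0.25 were EGFR at both doses and ERBB2 and INSR at 5 μM. A mean FPKM of at least 1, chosen after seeing the data, kept 7 receptors, all 7 lower by over 0.25 at both doses, beside 38.3% and 40.2% of all genes, though FGFR3 was over 1 FPKM in DMSO alone. Of the pathway lists, the other receptor kinases, co-receptors, RET ligands, attenuators, IGF-binding proteins and ERK-induced genes kept the sign of their median under 4 scalings at both doses. These scalings of the lists were added after seeing the data, and 2 of the 6 ERK-induced genes had to be higher to be counted. No library could be left out, with 1 per condition. No paired analysis was possible because each condition has 1 library. Depth limits ERBB4, on 12 to 39 fragments, FGFR3, on 62 to 199, and MET, on 92 to 133.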
